A study of Mus musculus with 2 samples.

Results

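The genes described here are 10 regulators and markers of the trophoblast, the outer lineage of the mouse blastocyst that forms the placenta: Elf5, Tfap2c, Tfap2a, Gata3, Gata2, Hand1, Tead4, Plet1, Esx1 and Cited1. They were taken by name, as the array probes that carry one of these symbols and are no control spots, which gave 18 probes for 10 of the 37008 genes and transcripts named on the array. Total RNA was taken from 46C cells, a mouse embryonic stem cell line that carries a reporter at the neural gene Sox1. Both groups were grown with serum and LIF over a feeder layer that was taken off before RNA was made. The shCtrl group carried a control short hairpin by its genotype label, although its title calls it WT, and the shLincU group carried one against LincU, a long noncoding RNA. Each group was measured on 1 one-colour array, both on the same slide, so no difference below has a replicate check or a p-value, and fewer cells of a type cannot be told apart from less RNA per cell. LincU itself was not analysed here, so the depth of the knockdown is unknown and directions follow the labels.

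The trophoblast and the pluripotent epiblast separate before implantation. Hippo signalling sets that choice: where it is inactive, the cofactor YAP enters the nucleus and joins the DNA-binding factor TEAD4, which turns on Cdx2 and Gata3. The AP-2 factors encoded by Tfap2c and Tfap2a, the zinc finger factors GATA2 and GATA3, and ELF5 then hold the trophoblast stem cell state, while HAND1 takes part in the formation of giant cells. Embryonic stem cells are normally barred from this fate, in part by POU5F1 and by DNA methylation of Elf5. TFAP2C is also used outside the trophoblast, in pluripotent and germ cells.

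The probe sequences show which stretch of a transcript each value reads. They are given for the genes with the widest differences, Plet1 and Esx1, and for Tfap2a, whose 4 probes gave different results. The first 30 of the 60 bases of each probe are printed in lower case, 5′ to 3′ in the sense of the transcript, with the mm9 position of the whole probe as the array gives it.
Plet1, 3′ probe, chr9:50313107-50313166, forward strand: ctactagcagatttccactgtgcccagacc
Plet1, 5′ probe, chr9:50307294-50307353, forward strand: gaagtgcaacgacagcagtgtctactataa
Esx1, chrX:133649977-133650036, reverse strand: aaacactatcacgcattacctgtcaagaag
Tfap2a, 3′-most probe, chr13:40811044-40811103, reverse strand: ctatgcctgtcaatgtatcatagtcctttg
Tfap2a, next probe, chr13:40811568-40811627, reverse strand: ccccgtggtagcatgttaaacgattataat
Tfap2a, inner probe, chr13:40816684-40816743, reverse strand: aatggagggagatctttaagagaaaaactg
Tfap2a, 5′-most probe, chr13:40829040-40829099, reverse strand: acgccgatccatgaaaatgctttggaaact
Plet1 and Tfap2a thus had probes 5813 and up to 17996 bases apart on the genome. Whether a probe lies in an exon or an untranslated region was not looked up, because no annotation of mm9 was used here.

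Processed intensity, the Cy3 signal after the scanner software's background correction, was scaled to the 75th percentile of each array, which was 626 units for shCtrl and 420.1 for shLincU. All levels are log2 values relative to that percentile, and all differences are shLincU minus shCtrl. A probe was measured where the software called it well above background on both arrays. This held for 11 of the 18 probes and for 9 of the 10 genes. Of the remaining probes, 2 reached that level only with shCtrl RNA, 0 only with shLincU RNA and 5 with neither. Over the whole array, 60.9% of 56605 probes were well above background for shCtrl and 57.9% for shLincU, and 21018 genes were measured on both arrays. None of the member spots was saturated or marked as an outlier.

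None of the 9 measured trophoblast genes differed by 2-fold or more. Over all genes measured, 1.14% (240) passed 2-fold upward and 1.53% (322) downward. The trophoblast genes ranged from -0.89 for Esx1 to 0.46 for Gata3, with a median of -0.066 against 0.020 over all genes. Of the 9, 4 were above 0, Gata3, Tead4, Hand1 and Tfap2c, as were 53.1% of all genes, and 5 were below it, Esx1, Plet1, Tfap2a, Cited1 and Gata2. These directions are relative to the bulk of genes, since before scaling all 13 probes detected on at least 1 array were dimmer for shLincU: with scaling to spiked-in E1A transcripts the median gene shifted by -0.89, all 9 were below 0, and over all genes 43 passed 2-fold upward and 6798 downward. At 1.5-fold, 2 of the 9 were lower, Plet1 and Esx1, and 0 higher, where 4.84% of all genes were lower and 4.78% higher by that much. Among genes read only in the lower rows of the array, where both lie, 6.22% were lower by 1.5-fold.

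**Figure D1:**
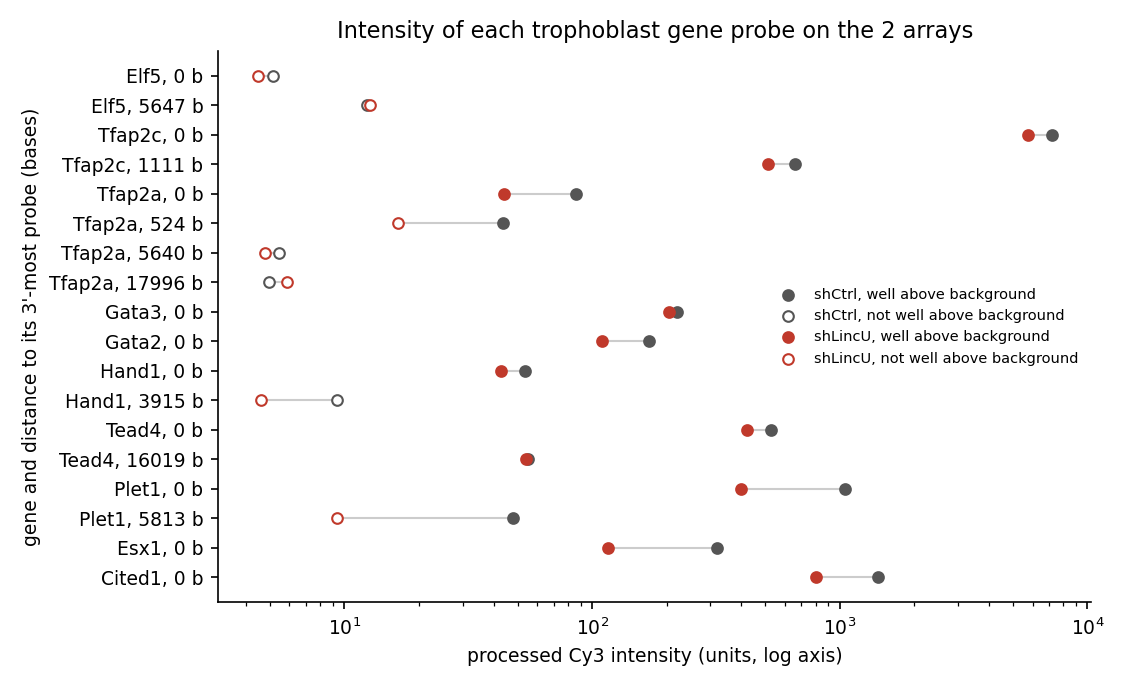
Processed Cy3 intensity (log axis) of each of the 18 probes on the shCtrl array (grey) and the shLincU array (red), 1 spot per probe and array; open circles were not well above background. Distances in bases run from the 3′-most probe of the gene. Intensities are not scaled between the arrays, and on that scale the 2 probes with a higher intensity for shLincU, of Elf5 and Tfap2a, were not well above background on either array.

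Among the regulators, the AP-2 genes went opposite ways. Tfap2c, which encodes AP-2 gamma, had an intensity of 7175 units for shCtrl and 5763 for shLincU at its 3′ probe, which after scaling was higher by 0.26. Its other probe, 1111 bases upstream, read 657 and 513 units and was higher by 0.22. Both probes thus gave nearly the same value, and the gene's difference was 0.24 with an error of 0.14. That error is the one the scanner software assigns; it is mostly a preset multiplicative error and no spread between samples. The interval that this error gives at 95% ran from -0.045 to 0.52 and included 0.

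Tfap2a, which encodes AP-2 alpha, was dim. Its 3′-most probe read 86.4 units for shCtrl and 44.3 for shLincU, a difference of -0.39 with an interval from -0.91 to 0.13. The probe 524 bases upstream read 43.7 and 16.4 units and was well above background for shCtrl only. Its bound was at least 1.42-fold lower for shLincU. The bound compares its signal with the lowest signal well above background on the shLincU array and takes no account of error. The interval of this probe's own difference ran from -1.78 to 0.10 and included 0. Its detection through shCtrl alone largely fixed its downward direction. With normexp background correction the gene's difference was 0.035. The inner and the 5′-most probe were not well above background on either array, at 4.79 to 5.87 units.

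The GATA genes differed in size and in sign. Gata3, whose factor promotes trophoblast genes downstream of TEAD4, read 221 units for shCtrl and 204 for shLincU, or -1.50 and -1.04 after scaling. Its difference of 0.46 was the highest of the 9 genes, with an interval from 0.047 to 0.87. Of all measured genes, 7.98% were as high or higher. Gata2, a regulator of giant cell genes and also of blood progenitors, read 170.2 and 109 units. Its difference of -0.066, with an interval from -0.49 to 0.36, changed sign to 0.082 with normexp background correction. Each GATA gene was read by 1 probe, so there was no second probe to set beside it.

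Tead4 was higher at both of its probes. The 3′ probe read 527 units for shCtrl and 421 for shLincU, a difference of 0.25 after scaling. The probe 16019 bases upstream read 55.1 and 54.2 units, a difference of 0.55. The gene's mean was 0.40 with an interval from 0.064 to 0.74, and 10.1% of all genes were as high or higher. Tead4 and Gata3 were the 2 of the higher genes whose interval left out 0. For the brighter 3′ probe of Tead4 alone the interval ran from -0.15 to 0.65 and included 0.

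Hand1, a helix-loop-helix factor of giant cells and of extraembryonic mesoderm, was near the limit of detection. Its 3′ probe read 53.5 units for shCtrl and 42.8 for shLincU, a difference of 0.25 with an interval from -0.30 to 0.80. The probe 3915 bases upstream was not well above background, at 9.30 and 4.61 units, and with that probe taken at its own signal the gene's difference was -0.092. The sign of Hand1 thus depended on whether the dim probe was read.

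Elf5, an ETS-family factor of trophoblast stem cells, was not well above background on either array. One of its probes read 5.16 units for shCtrl and 4.46 for shLincU, and the other read 12.4 and 12.7. The latter was positive and significant by the software's weaker criterion on both arrays. No difference is given for Elf5, because neither probe was well above background on either array.

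The surface marker Plet1, a placenta-expressed protein of trophoblast progenitors, was lower at its 3′ probe, the only probe measured on both arrays. The 3′ probe, which begins ctactagcag in the list above, read 1054 units for shCtrl and 399 for shLincU. After scaling these were 0.75 and -0.075, a difference of -0.83 with an error of 0.20 and an interval from -1.23 to -0.43. The 5′ probe read 48.1 units for shCtrl and 9.33 for shLincU. It was well above background for shCtrl only, at least 1.56-fold lower for shLincU, a direction that such detection largely fixes. Of all genes, 2.47% were as low as Plet1 or lower. Without the background filter Plet1 came to -1.31, past 2-fold. That mean takes the dim 5′ probe at its own signal, where only the bound of 1.56-fold is given. The interval of that probe's own difference ran from -3.20 to -0.38.

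Esx1, an X-linked homeobox gene of the placenta and the testis, was the lowest of the 9 genes. Its single probe read 320.3 units for shCtrl and 116 for shLincU, or -0.97 and -1.85 after scaling. The difference was -0.89 with an interval from -1.30 to -0.47, and 2.12% of all genes were as low or lower. It was -0.58 with normexp background correction, just under 1.5-fold. Of the 14 spots nearest to the Esx1 spot, 2 were at least 2-fold higher for shLincU and 0 lower. With 2 such neighbours Esx1 could not be read without spots beside discordant spots.

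Cited1, an X-linked transcriptional cofactor needed for normal placental growth, read 1433 units for shCtrl and 798 for shLincU. Its difference was -0.27 with an interval from -0.67 to 0.13. It was lower in each of the 12 settings that could be read for it apart from the spike-in scaling, between -0.34 and -0.23, which is also true of Esx1, between -0.93 and -0.58. Near the Cited1 spot 3 of 14 spots were at least 2-fold higher and 0 lower.

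**Figure D2:**
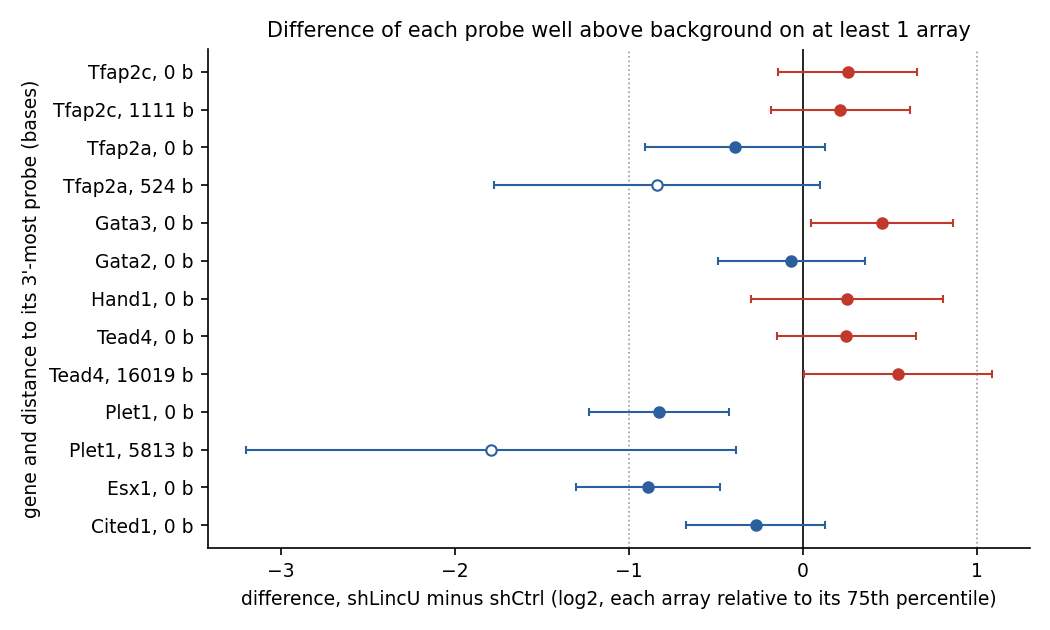
Difference between the arrays (log2, each relative to its 75th percentile) for the 13 probes well above background on at least 1 array; bars are the 95% interval from the error assigned by the scanner software, open circles were below that level for shLincU, dotted lines mark 2-fold. The 3′ probe of Plet1 lies at -0.83 and that of Esx1 at -0.89, the open circles of Plet1 and Tfap2a are drawn at their own signal and are no measured differences, and both probes of Tead4 and of Tfap2c lie above 0; with spike-in scaling all 9 genes lie below 0.

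In Tfap2c and Tead4 both probes were measured on both arrays and had the same sign. The second probes of Tfap2a and Plet1 were well above background for shCtrl only. That criterion largely fixed their downward sign, so they are no second reading of direction. In the 3 genes with probes both measured and not measured, Tfap2a, Hand1 and Plet1, the measured probe was the one nearest to the 3′ end. The labelled RNA was made with a linear amplification kit, per the labels, and the part of the labelling in this was not tested. Of the 18 probes 8 lay in the upper and 10 in the lower rows of the array; 4.11% of all spots in the lower rows differed at least 2-fold, against 1.33% in the upper rows. Around each of the 18 spots, the median difference of the 22 to 39 measured spots within 5 rows and 2 columns lay between -0.091 and 0.19. Less that local median, Plet1 was at -0.80, Esx1 at -0.88, Gata3 at 0.31 and Tfap2a at -0.58.

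**Figure D3:**
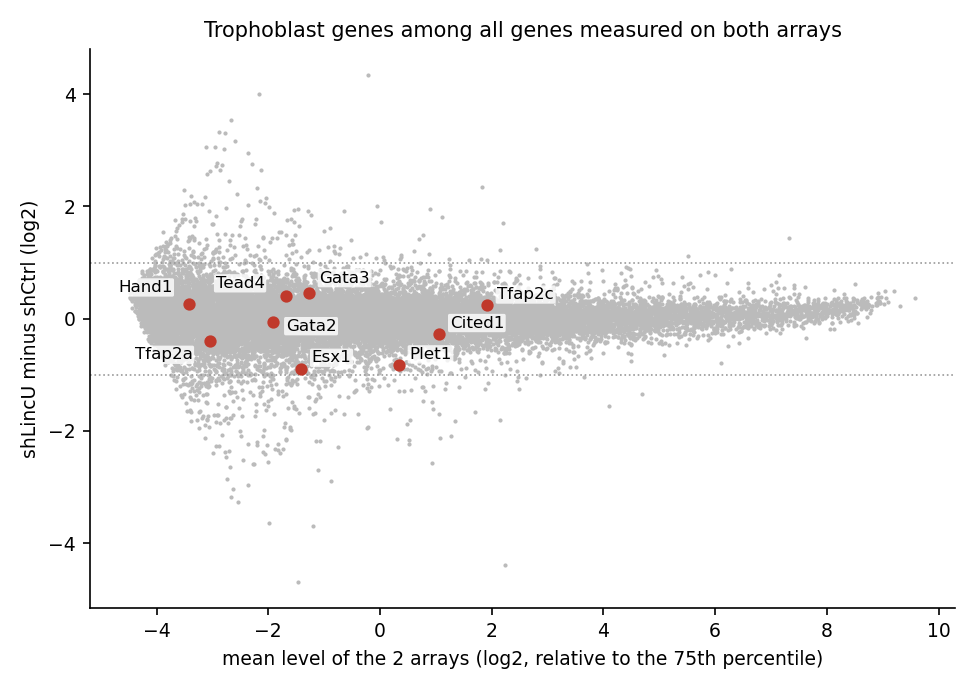
Difference (log2) against the mean level of both arrays (log2, relative to the 75th percentile) for the 21018 genes measured on both; the 9 measured trophoblast genes are in red and dotted lines mark 2-fold. All 9 lie inside the lines, with Esx1 and Plet1 nearest to the lower one and Gata3 and Tead4 highest; scaled to the spike-in controls each would lie below 0.

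Promoter sequence is shown for the genes at both ends of the range, the 250 bases before the start site in the RefSeq table of GRCm38.p6. Of the 10 genes 7 had an entry, with 12 start sites. The letters GCCNNNGGC for AP-2, AGATAA for GATA and GGAATG for TEAD factors were searched on both strands and are in capitals; the matches do not overlap.
Plet1, chr9:50494275-50494524 in GRCm38.p6, forward strand: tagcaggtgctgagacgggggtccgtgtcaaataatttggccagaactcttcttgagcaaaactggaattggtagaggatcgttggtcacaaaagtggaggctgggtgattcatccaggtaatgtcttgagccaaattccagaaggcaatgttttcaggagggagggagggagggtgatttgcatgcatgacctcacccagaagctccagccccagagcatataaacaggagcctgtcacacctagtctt
Esx1, chrX:137120327-137120576 in GRCm38.p6, reverse strand: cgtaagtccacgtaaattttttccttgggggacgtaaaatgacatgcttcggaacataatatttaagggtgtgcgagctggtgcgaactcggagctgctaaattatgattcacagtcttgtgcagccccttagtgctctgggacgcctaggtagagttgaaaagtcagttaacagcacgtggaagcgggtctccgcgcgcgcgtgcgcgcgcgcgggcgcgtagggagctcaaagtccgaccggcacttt
Gata3, chr2:9878601-9878850 in GRCm38.p6, reverse strand: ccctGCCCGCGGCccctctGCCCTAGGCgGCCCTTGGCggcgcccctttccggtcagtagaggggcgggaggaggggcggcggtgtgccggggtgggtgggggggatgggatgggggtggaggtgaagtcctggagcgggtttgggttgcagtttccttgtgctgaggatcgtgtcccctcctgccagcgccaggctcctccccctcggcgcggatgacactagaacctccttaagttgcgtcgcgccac
Gata3 held 3 matches to the AP-2 letters, which 13.7% of 32851 promoters of this length hold at least once, and 1 start site each of Gata2 and Cited1 held 1. Plet1, Esx1 and Tfap2a held none of the 3 motifs in these windows. The TEAD letters, held by 12.6% of promoters, occurred at 1 start site of Elf5 and 1 of Gata2, and the GATA letters, held by 9.99%, at none of the 12. A match is a description of letters and not a binding site.

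The partners of these genes in trophoblast stem cells were read from a list of 20 other regulators. Of 19 measured, 0 were at least 2-fold higher or lower, 12 were above 0, and the median was 0.089. Cdx2, the homeobox factor of the trophectoderm and also of the posterior embryo, read 474 units for shCtrl and 636 for shLincU, a difference just short of 2-fold. Cdx2, read by 1 probe, passed 2-fold with quantile normalization, cyclic loess and the deposited value table. In each of these, 1 of the 19 was at least 2-fold higher. Cdx2 was at 0.85 with normexp background correction, 0.95 less the local median and 0.11 with spike-in scaling. The deposited table holds nearly the same set of values for both arrays, so it is no setting independent of quantile normalization. The list's count was also 1 with the brightest probe of each gene and without spots beside discordant spots. There the gene was Eomes, at 1.37 from 1 probe, while Cdx2 stayed just short of 2-fold. Fgfr2, the receptor for the FGF4 that maintains trophoblast stem cells, was at 0.56 and the homeobox gene Msx2 at 0.53. Satb1, a chromatin organiser, was the lowest at -0.84. Eomes had a mean of 0.24, but its probes disagreed. One read 254 and 439 units, a difference of 1.37, and the other, with 2 lower spots beside it, read 127 and 46.6 units, a difference of -0.88. Cdx2 and Eomes are also genes of the primitive streak, so neither is particular to trophoblast.

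Of 32 genes of placental differentiation, 23 were measured, 8 were below background on both arrays and 1 had no probe. As reported none passed 2-fold, 9 were above 0 and 14 below, and the median was -0.16, or 0.10 with normexp background correction. At the top were Peg10, an imprinted retroelement-derived gene, at 0.96 and the simple keratins Krt8 and Krt18 at 0.94 and 0.82. The lowest was the kinase gene Nrk at -0.98, just short of 2-fold. Apart from the spike-in scaling, it passed 2-fold with median centring (-1.02) and less the local median (-1.05). With normexp background correction it was at -0.47. With the brightest probe of each gene 1 gene of the list was at least 2-fold lower, but Nrk stayed at -0.98. The spongiotrophoblast gene Tpbpa, the lactogen-family genes Prl8a9 and Prl7a1 and the fusion gene Syna were among the 8 below background. Related genes were measured on both arrays. The lactogen genes Prl3d1 and Prl3b1 were at -0.45 (error 0.32) and 0.048 (error 0.24), and the fusion gene Synb at -0.33 (error 0.28). These 3 were dim, with shCtrl levels of -3.41, -2.61 and -3.03, where the lowest level well above background was -4.72. Gcm1, a factor of the syncytiotrophoblast, was at -0.64 (error 0.12). Products of the mature placenta were thus detected in part.

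Of 22 Hippo pathway genes, 21 were measured and 0 passed 2-fold, with a median of 0.071, or -0.17 with the brightest probe of each gene. Amot, whose product holds YAP outside the nucleus, was at 0.67 and the TEAD4 paralogue Tead3 at 0.56. Less the local median Tead3 was at 0.26, and it could not be read without spots beside discordant spots. The YAP target genes Ccn1 and Ccn2 went opposite ways, at 0.53 and -0.51. Of 17 paralogues of the 10 genes, 14 were measured and 0 passed 2-fold. Their median was 0.096, with 8 above 0 and 6 below. Gata4, a factor of the endoderm, was at 0.81 from a dim probe, with a shCtrl level of -3.17. It was at 0.59 with normexp background correction and at 0.49 without the background filter. Gata5 was at 0.42 and the AP-2 epsilon gene Tfap2e at -0.59, or -0.19 with normexp background correction.

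All 22 genes that bar the trophoblast fate in stem cells were measured and 0 passed 2-fold, with a median of 0.084. Of the 22, 15 were above 0 and 7 below. Pou5f1, the factor whose loss turns stem cells to trophoblast, was at -0.024. The DNA methyltransferase gene Dnmt3b was at 0.57, the histone methyltransferase gene Ehmt2 at 0.53 and Uhrf1, which guides maintenance methylation, at 0.47. Setdb1 was at 0.38, or -0.29 with its brightest probe. The lowest was Suz12 at -0.33, and the other methyltransferase genes Dnmt1 and Dnmt3a were at -0.032 and -0.035.

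**Figure D4:**
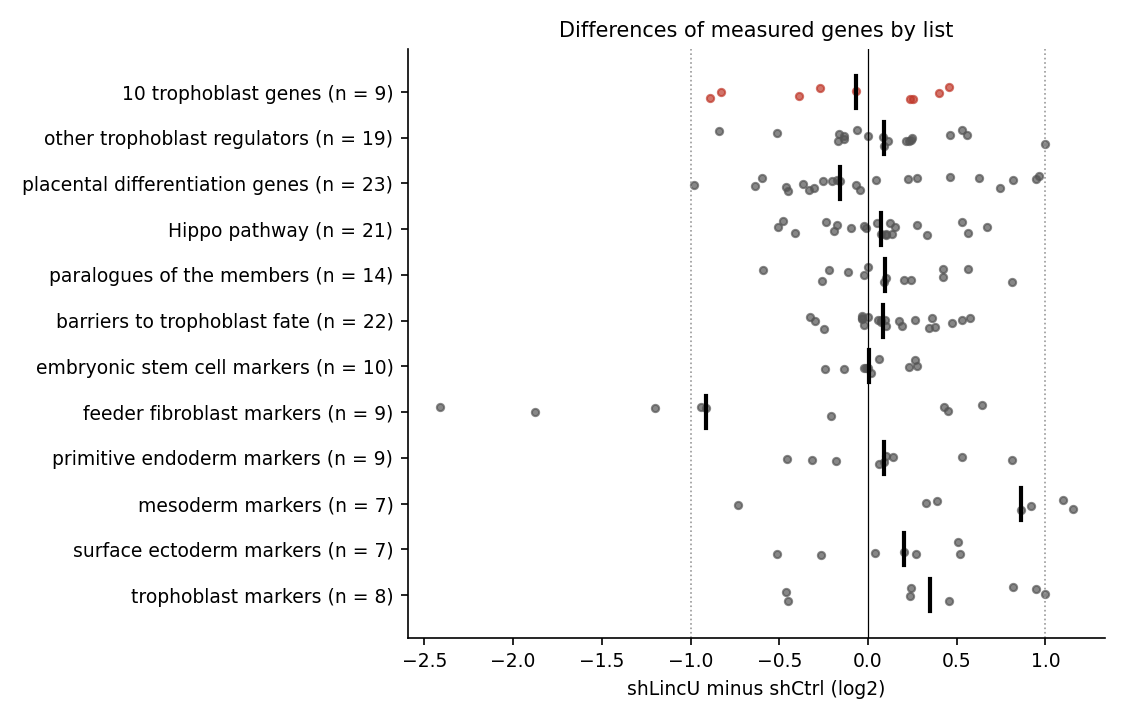
Differences (log2, shLincU minus shCtrl) of the measured genes in each list, 1 point per gene, with the number measured; black bars are medians and dotted lines mark 2-fold. The trophoblast genes (red) have a median of -0.066, the feeder fibroblast list lies lowest at -0.91 and the mesoderm list highest at 0.86; all points are relative to the bulk of genes and shift down by 0.89 with spike-in scaling.

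Markers of cell types were read on the same scale. All 10 embryonic stem cell markers were well above background on both arrays, with a median of 0.0074. Of 10 trophoblast markers, which include 3 of the genes described here, 8 were well above background on each array, Elf5 and Tpbpa were not, and the summed scaled intensity was 34.9 for shCtrl and 56.0 for shLincU. The simple keratins Krt8 and Krt18, which many epithelia make, held most of that difference: their sum was 20.5 and 37.8, and that of the other markers 14.4 and 18.2. None of the 8 passed 2-fold, and Krt7 and Prl3d1 were below 0 at -0.46 and -0.45. Feeder fibroblast markers were mixed. Of 9 measured, 3 were at least 2-fold lower, Dcn at -2.41 (-1.41 with normexp background correction), S100a4 at -1.88 and Col1a2 at -1.20 (-0.24 without the background filter). Lum was well above background for shLincU only, at least 2.32-fold higher. Of these 10 markers 9 were well above background for shCtrl and 10 for shLincU, the sum was 14.7 and 9.89, and 3 of the 9 were above 0, among them the collagen genes Col1a1 at 0.45 and Col3a1 at 0.64. The list's median of -0.91 was -0.16 with normexp background correction. Of 7 mesoderm markers measured, 6 were above 0, and 2 were at least 2-fold higher, Evx1 by 2.23-fold and T by 2.14-fold. T was at 0.74, under 2-fold, without the background filter, and the receptor gene Kdr was below 0 at -0.73. The list's sum was 1.76 and 3.17. Their median of 0.86 was 0.57 with normexp background correction, with 0 past 2-fold. The mesendoderm gene Mixl1 was well above background for shLincU only, at least 3.03-fold higher. The part of feeder or mesoderm cells in the values of Plet1, Esx1, Hand1 or Gata3 was not tested. The 9 primitive endoderm and 7 surface ectoderm markers measured had medians of 0.089 and 0.20 with 0 past 2-fold.

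**Figure D5:**
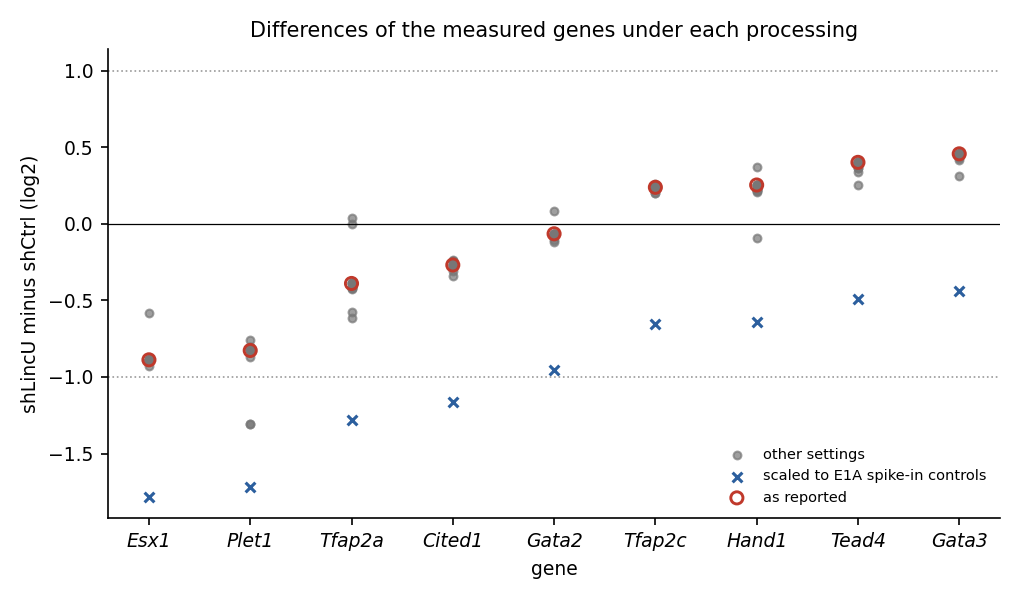
Difference (log2) of each measured trophoblast gene as reported (red circles), with spike-in scaling (blue crosses) and in the other settings (grey). Plet1, Esx1 and Cited1 stay below 0 in all settings that could be read and Gata3, Tead4 and Tfap2c above 0 in all but spike-in scaling, while Tfap2a, Gata2 and Hand1 change sign in 1 setting other than spike-in scaling.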

How the data were processed

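RNA of 46C embryonic stem cells was hybridised to 1 one-colour array per group. The deposited scanner files hold intensity values per spot, which the authors extracted with Agilent Feature Extraction, version 10.7.1.1 according to the submitters' processing notes. Per the file headers, spatial and multiplicative detrending were applied to the processed intensity, and the mean and local background intensities are uncorrected. The deposited files' other columns are marks of 0 or 1 per spot. The deposited value table holds log2 values with a median of 5.65 in each column; over 56572 matched probes its slope on log2 scanner values was 1.00 for both arrays, and its centring stays unknown.

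Here log2 intensity was taken relative to each array's 75th percentile, leaving out control and outlier-marked spots. A gene's value averages those of its probes that passed the background criterion on both arrays. A probe above it on one array has a lower bound, which takes no account of the scanner error. Other genes were named through a RefSeq table of GRCm38, used for names only: an accession matched for 32994 probes, a symbol for 10224 and a synonym for 520, while 12867 stayed as the array names them. With 1 array per group nothing was tested and genes were counted by size, at 2-fold. A rule set in advance picked Cdx2, Eomes and Pou5f1, the up to 4 widest differences of each list, and any list member past 2-fold. Not every gene picked by this rule is named above. Among those left out were Thy1 at -0.94, Lhx1 at 0.92 and Mesp1 at 0.86. Further names from the lists were picked with their values in view. The 10 genes and the lists were chosen with earlier results of these data known. The calculation was tested on simulated data. Alternatives are given in the closing section. Software was limma 3.58.1 in R 4.3.3, and numpy 2.4.6, pandas 2.3.3 and matplotlib 3.10.9 in Python 3.11.15.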

Additional observations from a re-analysis of the deposited data

How the results depend on the processing

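No paired analysis was possible because shCtrl and shLincU have 1 array apiece, which also means that none could be left out. The number of members past 2-fold was 0 as reported and also with normexp background correction (offset 50), quantile normalization, cyclic loess, median centring, the deposited value table, the brightest probe, the median over probes, outlier-marked spots kept, at 3-fold, and without spots that had at least 2 of their 14 neighbours discordant in one direction, where Esx1 and Cited1 could not be read. It was 4 with scaling to 8 E1A spike-in probes, 1 (Plet1) without a background filter, 1 (Plet1) with the weaker detection criterion, both with its dim probe at its own signal, and 2 at 1.5-fold. Over all genes, the number past 2-fold, as reported 562 (240 higher and 322 lower), was 203 with normexp (95 and 108), 6841 with E1A scaling (43 and 6798), 2794 without a background filter (1464 and 1330), 1856 with the weaker detection criterion (952 and 904), 2022 at 1.5-fold (1005 and 1017) and 181 at 3-fold (72 and 109). More genes were read without the filter and with the weaker criterion, 36992 and 26554 in place of 21018; the cause of the change with normexp was not tested. Signs changed with normexp for Tfap2a and Gata2, without a background filter for Hand1, and with E1A scaling for Tfap2c, Gata3, Hand1 and Tead4. Subtracting the local median was chosen after seeing the data, and left 0 members past 2-fold. Signal over background limits Elf5, Hand1 and Tfap2a, which lay near or below the level of detection.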
